A study of Mus musculus with 6 samples.

Results

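Collagens are proteins of 3 chains wound into a triple helix, and the genes described here are those whose symbol consists of Col, a type number, the letter a and a chain number. The table of mouse testis expression held 43 such genes among 22219, of which 8 encode fibrillar chains (types I, III, V and XI), 8 encode basement membrane chains (types IV, XV and XVIII) and 27 encode other chains. Col2a1, Col24a1 and Col27a1 also encode fibril-forming chains but are counted here with the other chains. A filter on low counts left 42 chains. Col19a1, the chain left out, had 0 to 8 reads per library. RNA came from whole testes of mice on day 10 after a floxed Eif5 line had been crossed with a Stra8-Cre line, 3 libraries from controls and 3 from the germ cell conditional knockout (cKO). Eif5 encodes a translation initiation factor, and Stra8-Cre is driven by a germ cell promoter. The labels give neither the genotype of the controls nor the strain, and do not say that each library is a separate animal, so the p-values measure the spread between these libraries, which may be technical.

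Fibrillar collagens form the cables of the interstitium between the seminiferous tubules and of the capsule around the testis. Type IV collagen is the mesh of basement membranes, on which Sertoli cells and spermatogonia rest, and types XV and XVIII are collagens that carry sugar chains within these sheets. New chains are hydroxylated, folded with dedicated chaperones in the endoplasmic reticulum, exported, trimmed outside the cell and cross-linked. In the testis most of this is the work of somatic cells, which the Cre driver does not target.

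Of the 42 chains tested 2 were higher and 3 lower in cKO, 11.9% in all, where 20% of all 17570 genes tested were called at an adjusted p under 0.05 (limma, Benjamini-Hochberg adjustment over all genes). The calls were Col23a1 and Col26a1 higher, and Col22a1, Col27a1 and Col28a1 lower. On recovered reads edgeR's quasi-likelihood test called 1 chain higher and 3 lower, beside 8.96% higher and 10.6% lower of all genes (19.5% in all). No chain of the fibrillar or the basement membrane class was called by either. Col27a1, a fibril-forming chain counted with the other chains, was called lower by both. At an unadjusted p under 0.05 there were 11 chains of 42, where 33.4% of all genes passed. None of the 11 was of the fibrillar or the basement membrane class. The groups did not overlap for 11 chains, 26.2%, against 36.7% of all genes tested. The split by direction rests on the scaling: with the deposited factors the median of all genes was 0.0070, and with every library scaled to the same mean log2 level of 18 Sertoli cell markers it was -0.36. Under that scaling 0 chains were higher and 24 (57.1%) lower, beside 0.45% higher and 42.1% lower among all genes tested. All fold changes are differences of log2(normalised read count + 2), cKO minus control. The added 2 draws the change of a weakly expressed gene towards 0. The value is still not always the smaller one: the weakly expressed Col28a1 was at -1.90, and at -1.73 in edgeR.

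Recovered library depth ran from 32555443 to 48409550 reads, and pairs of libraries of 1 group correlated at 0.986 to 0.988 and pairs across groups at 0.978 to 0.982 (log2 values, across genes). Eif5 itself, the targeted gene, was lower in all 3 cKO libraries (-0.31, limma adjusted p = 0.0240). The table gives 1 value for the whole gene, so the floxed exons could not be read apart. Germ cell markers were lower in 10 of 12 cases and higher in 0, and their summed normalised counts were 68036 to 76610 in controls and 42318 to 44865 in cKO. Of 18 Sertoli markers 9 were higher and 1 lower, and of 12 fibroblast markers 3 were higher and 0 lower. Of 10 peritubular myoid markers 0 were higher and 2 lower. With library totals fibroblast markers were 3 higher and 1 lower, and with the Sertoli scaling 0 and 2. Myoid markers were 2 lower with library totals and 8 lower with the Sertoli scaling, and 0 higher in both. Leydig cell markers were higher in 8 of 12 cases and macrophage markers in 7 of 12 with the deposited factors. Endothelial markers were split 2 higher and 2 lower of 12, and none of 8 pericyte markers was called. Among all genes tested 9.63% were higher and 10.4% lower with these factors. Macrophage markers were called in none of 12 cases with library totals, the Sertoli scaling or a stromal scaling (equal mean log2 level of 22 fibroblast and myoid markers). With the Sertoli scaling 1 Leydig marker was higher, and 8 endothelial markers were lower and none higher. Among all genes tested 0.45% were higher and 42.1% lower with that scaling. In a whole testis fewer cells of a type and less RNA per cell cannot be told apart, and the part of these shifts in the collagen values was not tested.

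The 250 bases before the annotated start are shown for the abundant fibrillar chain Col3a1 and for those called chains that RefSeq (GRCm38.p6) supplied here, so that the promoter of a chain that did not pass the test can be read beside those of chains that did. Capitals mark matches, on either strand, to the TATA box letters TATAAA, to the CCAAT box letters CCAAT, to the GC box letters GGGCGG, or to the composite element known to bind ATF4, spelled TGATGNAA.
Col3a1, chr1:45311288-45311537, plus strand: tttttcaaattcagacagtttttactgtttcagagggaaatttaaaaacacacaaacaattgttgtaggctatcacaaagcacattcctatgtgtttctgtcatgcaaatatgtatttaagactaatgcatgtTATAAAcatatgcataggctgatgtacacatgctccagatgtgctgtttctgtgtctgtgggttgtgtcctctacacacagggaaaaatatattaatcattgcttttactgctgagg
Col23a1, chr11:51289670-51289919, plus strand: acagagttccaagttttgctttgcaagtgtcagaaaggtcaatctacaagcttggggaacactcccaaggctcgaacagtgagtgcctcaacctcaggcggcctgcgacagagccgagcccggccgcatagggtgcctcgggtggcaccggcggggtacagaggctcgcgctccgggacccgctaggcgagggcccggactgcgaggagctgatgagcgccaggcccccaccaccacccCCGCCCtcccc
Col27a1, chr4:63215162-63215411, plus strand: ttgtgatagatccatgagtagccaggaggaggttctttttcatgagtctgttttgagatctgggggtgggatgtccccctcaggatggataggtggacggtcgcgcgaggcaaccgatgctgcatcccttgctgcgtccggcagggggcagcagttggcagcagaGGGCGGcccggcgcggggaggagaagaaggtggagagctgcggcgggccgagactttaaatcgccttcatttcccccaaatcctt
Col28a1, chr6:8192618-8192867, minus strand: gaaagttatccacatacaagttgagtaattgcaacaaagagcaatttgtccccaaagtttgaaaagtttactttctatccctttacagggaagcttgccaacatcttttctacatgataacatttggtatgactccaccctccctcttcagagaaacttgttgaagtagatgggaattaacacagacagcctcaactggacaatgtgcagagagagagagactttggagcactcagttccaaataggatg
The Col3a1 window held 1 TATA box and 35.2% G and C. Col23a1 and Col27a1 held 1 GC box each, in windows of 66.0% and 59.6% G and C, and Col28a1 held none of these letters at 40.4%. No printed window held more than 1 match, so no matches overlapped. Over the 37 windows of 34 collagen genes in the RefSeq table, GC boxes stood in 22 (59.5%), CCAAT in 13 (35.1%), TATAAA in 4 (10.8%) and the ATF4 element in 0. Over all 32851 windows of the same length the shares were 32.7%, 33.8%, 12.4% and 3.45%, in the same order. These are matches of letters only. The windows of the collagen genes ran from 35.2% to 76.4% G and C, and the median over all windows was 52.4%. The part of base composition in these shares was not tested. Repeated windows were removed for the collagen genes only.

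**Figure D1:**
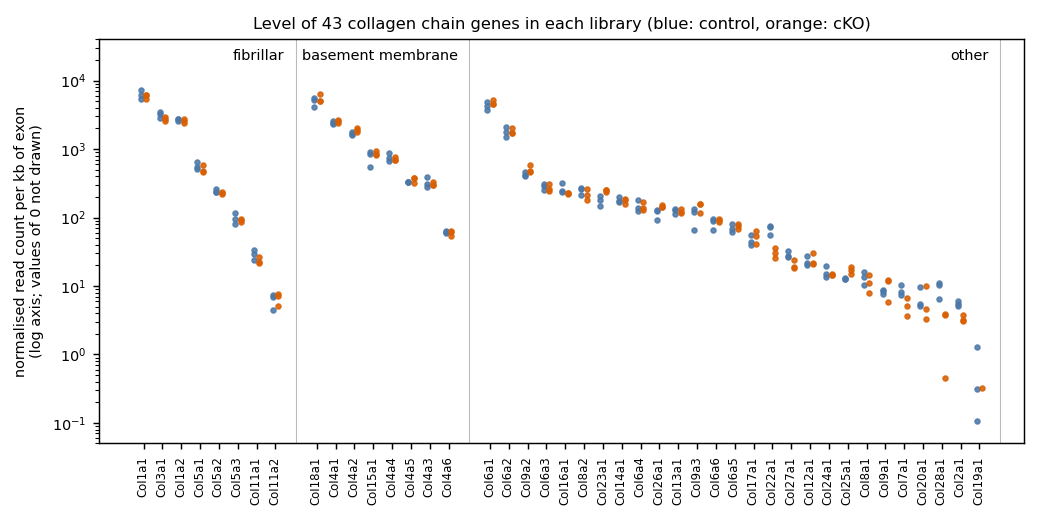
Normalised read count per kilobase of exon (log axis) for 43 collagen chain genes, ordered by mean level within each class, with 1 point per library (blue, control; orange, cKO). Col1a1, Col18a1 and Col6a1 lead their classes, and control and cKO points lie together for most chains, with Col22a1 and Col28a1 apart.

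Levels were compared between chains per kilobase of exon, with lengths from GENCODE M21. A length is the union of all annotated exons of a gene and can exceed that of the transcript present. The order of chains and the size of their ratios thus depend on it. Col1a1 had the highest mean level of all collagen chains, 6104 normalised counts per kb over the 6 libraries, and ranked 224 among the 20933 genes with a length. Col18a1 followed at 5239 per kb and Col6a1, of the beaded filaments of type VI collagen, at 4512. Then came Col3a1 (2969), Col1a2 (2636), Col4a1 (2488), Col6a2 (1808) and Col4a2 (1798), also per kb. The 5 chains with the largest counts made up 62.5% to 65.5% of all collagen counts in a library. All collagen chains together took 0.629%, 0.738% and 0.641% of the normalised counts in control replicates 1 to 3 and 0.675%, 0.628% and 0.592% in cKO. Those ranges overlap, with control replicate 2 the highest and cKO replicate 3 the lowest.

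None of the fibrillar chains passed the test: 7 of 8 had a log2 fold change below 0, and the median was -0.091, where that of all genes was 0.0070. These signs partly rested on single libraries. With 1 library left out Col1a1, Col1a2 and Col5a3 reached up to 0.0099, 0.0011 and 0.059. Col3a1, Col5a1, Col5a2 and Col11a1 stayed below 0 in all such fits. Col1a1, the major chain of type I collagen, had 35991, 47275 and 40897 normalised counts in controls and 40859, 40502 and 34834 in cKO. Its partner Col1a2 had 32033, 34336 and 33705 in controls and 34296, 32468 and 29675 in cKO. For both chains the groups overlapped, with log2 fold changes of -0.091 (95% interval -0.35 to 0.17, limma adjusted p = 0.663) and -0.055 (-0.29 to 0.18, adjusted p = 0.776). Col3a1, which forms mixed fibrils with type I, had 28047, 33997 and 31944 counts in controls and 28970, 26673 and 25250 in cKO. Control replicate 1 lay below cKO replicate 1, so the groups overlapped (log2 fold change -0.21, SE 0.114, limma adjusted p = 0.194), and without control replicate 1 Col3a1 was called lower (-0.29, adjusted p = 0.0421).

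The minor fibrillar chains, which regulate fibril width, gave the same picture. Col5a1 and Col5a3, chains of type V, and Col11a1, a chain of type XI, had log2 fold changes of -0.17, -0.075 and -0.29. Col5a2 was the only fibrillar chain whose groups did not overlap, with 2506, 2274 and 2290 counts in controls and 2213, 2266 and 2147 in cKO, yet the change was small (-0.092, limma adjusted p = 0.520). Col11a2, the lowest of the class at 6.43 counts per kb, was the 1 chain above 0 (0.081, 95% interval -0.59 to 0.75). With the Sertoli scaling the class median was -0.47, where that of all genes was -0.36. Col1a1, Col1a2, Col3a1, Col5a1, Col5a2, Col5a3 and Col11a1 were called lower under it (adjusted p from 9.83e-05 to 0.0154).

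**Figure D2:**
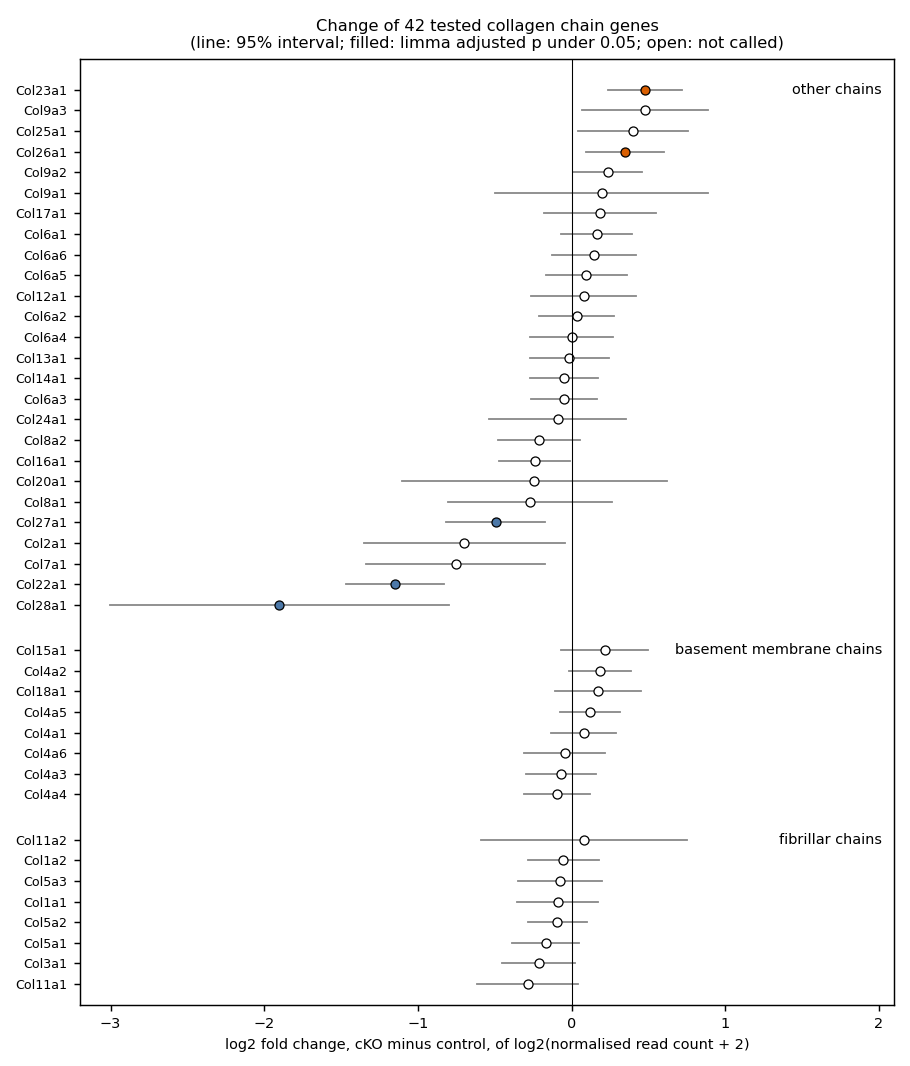
Log2 fold change, cKO minus control, of the 42 tested chains on log2(normalised read count + 2), with 95% intervals from limma, grouped by class. Filled points were called at an adjusted p under 0.05 (orange higher, blue lower), and all intervals of the fibrillar and basement membrane chains cross 0.

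Basement membrane chains had a median log2 fold change of 0.099 (5 of 8 above 0), or -0.28 with the Sertoli scaling. Col18a1, the precursor of endostatin, had 28512, 38567 and 36861 normalised counts in controls and 44869, 35871 and 36000 in cKO. One cKO library was above all others and the remaining cKO libraries lay within the control range (log2 fold change 0.17, 95% interval -0.11 to 0.45, limma adjusted p = 0.397). Col4a1 and Col4a2 encode the chains of the common type IV network and are transcribed away from each other out of 1 shared promoter region. Col4a1 had 17809, 19205 and 17197 counts in controls and 20172, 18031 and 18988 in cKO, with overlap (0.077, limma adjusted p = 0.637). Col4a2 had 10569, 11702 and 11154 in controls and 13557, 12524 and 11891 in cKO. All 3 cKO values of Col4a2 were above the controls, but the difference did not pass the test (0.18, SE 0.0960, limma adjusted p = 0.189). Under the Sertoli scaling both were below 0, and Col4a1 was then called lower (-0.30, adjusted p = 0.0273).

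The tissue-restricted type IV chains lay near 0. Col4a3 and Col4a4, another divergent pair, had log2 fold changes of -0.070 and -0.094. The X-linked Col4a5 and Col4a6 had 0.12 and -0.045. Per kb, Col4a4 (743) stood above Col4a5 (345), Col4a3 (318) and Col4a6 (60.6). None of these 4 chains was called with any library left out, and with the Sertoli scaling Col4a3, Col4a4 and Col4a6 were called lower (adjusted p = 0.0158, 0.00562 and 0.0281). Col4a3 shares 563 exonic bases, 5.65% of its length, with a gene on the opposite strand, C430014B12Rik, and the strand setting of the counting is not given. Col15a1, a collagen of the outer basement membrane zone, had 3444 counts in control replicate 1 and 5196 to 5980 in the other 5 libraries. Its log2 fold change was 0.22 (adjusted p = 0.285) with all libraries and -0.016 without control replicate 1.

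Ratios between chains of 1 collagen type were taken within each library. The Col1a1 level per kb was 2.34 ± 0.243 times that of Col1a2 in controls and 2.28 ± 0.0728 times in cKO (SD, n = 3 per group), with overlap. In controls the mean normalised counts were 41388 for Col1a1 and 33358 for Col1a2, and the lengths were 6.56 and 12.4 kb. Much of this ratio thus comes from the lengths, which are the same in both groups. Col4a1 stood at 1.44 ± 0.0651 times Col4a2 in controls and 1.34 ± 0.0713 in cKO, and Col4a3 at 0.423 ± 0.0159 times Col4a4 in controls and 0.430 ± 0.00838 in cKO, also with overlap. Other ratios varied more between libraries, with Col5a1 at 1.98 to 2.73 times Col5a2 and Col8a1 at 0.0379 to 0.0623 times Col8a2. The groups did not overlap for 2 of 14 pairs computed. Col4a5 was 5.38 ± 0.133 times Col4a6 in controls and 6.03 ± 0.175 times in cKO, and Col6a1 was 2.39 ± 0.131 times Col6a2 in controls and 2.62 ± 0.0566 times in cKO. A ratio within a library does not depend on the scaling, but its size depends on the exon lengths used. In an exact 2-sided permutation test of the log2 ratios both of these pairs reached p = 0.1, the smallest p that 3 libraries against 3 allow, and 0.56 after Benjamini-Hochberg adjustment over the 14 pairs, so neither passed.

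**Figure D3:**
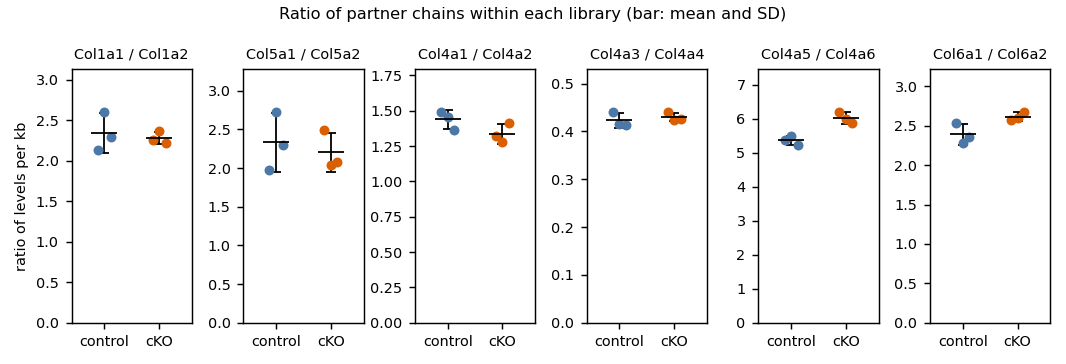
Ratio of the levels per kb of partner chains within each library, for 6 pairs (points, libraries; bar, mean and SD; blue, control; orange, cKO). The cKO points lie above all controls for Col4a5 over Col4a6 and Col6a1 over Col6a2, and the groups overlap for the other 4 pairs.

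Among protein-coding genes in RefSeq order, 8 pairs of collagen chains are direct neighbours, among them Col3a1 with Col5a2, Col6a1 with Col6a2, and the run Col6a6, Col6a5 and Col6a4. Col3a1 and Col5a2 had log2 fold changes of -0.21 and -0.092, and Col6a6 and Col6a5 had 0.15 and 0.095. No neighbouring pair held a called chain.

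All 5 calls were among the other chains. Of 26 tested, 2 were higher, 3 lower and 21 not called, and the median was -0.0077. The share called, 19.2%, was close to the 20% of all genes. The chain that changed with the smallest p was Col22a1, a fibril-associated collagen known from tissue junctions such as that of muscle and tendon. It had 666, 696 and 518 normalised counts in controls and 329, 278 and 237 in cKO. Every cKO library was below every control, and the mean fell from 627 ± 95.3 to 281 ± 45.6 (SD, n = 3 per group). On the log2 scale it fell by 1.15 (SE 0.153, limma adjusted p = 2.45e-05). Col22a1 was called lower under all 15 other settings tried, with values from -1.52 to -1.04, edgeR among them (adjusted p = 2.15e-05). Markers of skeletal muscle, a tissue with such junctions, summed to 674 to 816 normalised counts in controls and 414 to 563 in cKO. Of 7 tested muscle markers 2 were lower, Myh3 (-1.06) and Actn3 (-0.77), and 0 higher. The others were on both sides of 0 in limma: Myh1 (-0.46) and Mylpf (-0.16) below, and Acta1 (0.25), Myh8 (0.022) and Tnnt3 (0.45) above. In edgeR Acta1 (-0.48) and Myh8 (-0.0078) were below 0 as well, and only Tnnt3 (0.47) was above. Acta1 alone ran from 10.9 to 209 counts in controls. Ckm, Myh4 and Myog did not reach the test. The part of muscle and of the germ cell shift in the Col22a1 value was not tested.

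Col28a1, which encodes a chain with von Willebrand factor A domains known from peripheral nerve, had the largest fitted change and few reads. It had 68, 29 and 49 reads in controls and 2, 23 and 16 in cKO. Recovered reads may not be independent of each other, as low counts were mostly even in every library. As normalised counts these were 50.3, 31.6 and 53.4 against 2.25, 18.5 and 19.4, without overlap. On the log2 scale it fell by 1.90 (SE 0.530, 95% interval -3.01 to -0.80, limma adjusted p = 0.0151), and -1.32 with a pseudocount of 10. The cKO library with 2 reads weighed on it: without cKO replicate 1 the value was -1.14 and the call was lost (adjusted p = 0.0700). It was lost as well without control replicate 1 (adjusted p = 0.0605) or control replicate 3 (0.0599).

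Col27a1 encodes a fibril-forming chain best known from cartilage. It had 351, 417 and 362 normalised counts in controls and 317, 243 and 245 in cKO. The highest cKO library was below the lowest control (log2 fold change -0.49, SE 0.155, limma adjusted p = 0.0288). The call ended in the limma fits that left out control replicate 2 (adjusted p = 0.105), cKO replicate 2 (0.114) or cKO replicate 3 (0.102). The other fibril-forming chains outside the fibrillar class, Col2a1 of cartilage and Col24a1, had log2 fold changes of -0.70 and -0.091 and were not called. Col2a1 had 47.9 to 56.2 counts in controls and 28.9 to 34.9 in cKO, without overlap (limma adjusted p = 0.122). Of 7 tested markers of cartilage and bone, Acan, the large cartilage proteoglycan, was lower (-0.64) and the link protein Hapln1 higher (0.60). The summed level of that list was 1055 to 1094 in controls and 1195 to 1307 in cKO. Without Hapln1, a sum taken after the values were seen, it was 373 to 491 in controls and 279 to 340 in cKO. All 6 other tested markers had limma values below 0, though Runx2 (-0.21) was at 0.051 in edgeR. The part of these markers in the Col27a1 and Col2a1 values was not tested.

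Col23a1, a collagen anchored in the cell membrane, was the clearest rise. It had 852, 1180 and 1027 normalised counts in controls and 1340, 1430 and 1456 in cKO. All cKO libraries were above all controls (log2 fold change 0.48, SE 0.116, limma adjusted p = 0.00640). The call held in 14 of 15 other settings and was absent with the Sertoli scaling, where the value was 0.10 (adjusted p = 0.548). Control replicate 1 was the lowest library, and with it left out the value was 0.35 (limma adjusted p = 0.0267).

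The other transmembrane chains did not pass the test. Col25a1, which was first found in amyloid plaques, had 172, 163 and 164 counts in controls and 197, 243 and 222 in cKO. The groups did not overlap, but the difference failed the correction (0.40, SE 0.172, limma adjusted p = 0.107). Col17a1, of hemidesmosomes, had 0.19 (adjusted p = 0.494) and Col13a1 had -0.015 (adjusted p = 0.949), both with overlap.

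Col26a1, a collagen described from testis and ovary, stood at the threshold. It had 753, 1066 and 1007 counts in controls and 1235, 1164 and 1163 in cKO. The groups did not overlap (log2 fold change 0.35, SE 0.122, limma adjusted p = 0.0481), but edgeR did not call it (adjusted p = 0.0554). Of 15 other settings 5 called it. The value dropped to 0.20 without control replicate 1 (adjusted p = 0.218) and to -0.025 with the Sertoli scaling, and the call also ended without cKO replicate 1, 2 or 3 (adjusted p = 0.143, 0.0930 and 0.0921).

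**Figure D4:**
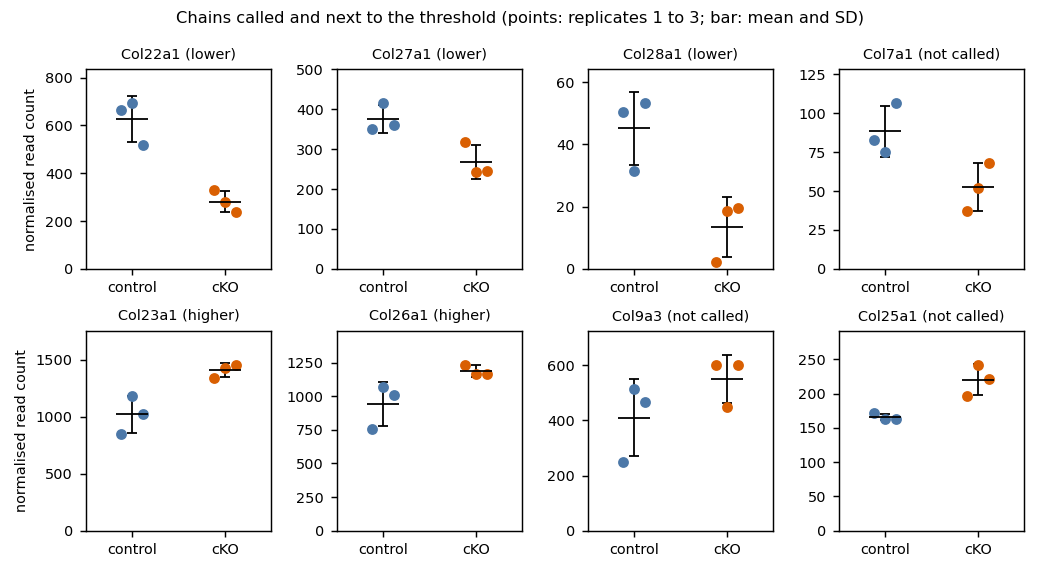
Normalised read counts (linear axes from 0) in each library for the 5 called chains and 3 chains next to the threshold (points, replicates 1 to 3; bar, mean and SD; n = 3 per group). The groups are separate for all but Col9a3, and control replicate 1, the left blue point, is the lowest library for Col23a1, Col26a1 and Col9a3.

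Just outside the threshold stood Col7a1, the chain of the anchoring fibrils that tie epithelia to connective tissue. It had 82.8, 75.1 and 107 counts in controls and 37.1, 52.2 and 67.9 in cKO, without overlap (-0.76, SE 0.281, limma adjusted p = 0.0623). It was called lower with library totals (adjusted p = 0.0355), with the Sertoli scaling (0.00273) and with cKO replicate 3 left out (0.0405). Col9a3, a chain of the fibril-associated type IX, had 251, 512 and 467 counts in controls and 602, 449 and 599 in cKO. Here cKO replicate 2 lay among the controls (0.48, adjusted p = 0.0941), and the gene was called higher in the limma fits that left out control replicate 2 (adjusted p = 0.0322) or cKO replicate 2 (0.0423). Col9a3 shares 234 exonic bases with Tcfl5 on the opposite strand.

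None of the 6 type VI chains was called with the deposited factors, the abundant Col6a1 and Col6a2 included. Col6a1 had 16528, 21025 and 18478 normalised counts in controls and 22769, 19681 and 20096 in cKO. Col6a2 had 12382, 17501 and 14914 in controls and 16817, 14434 and 14256 in cKO. The groups overlapped for both, with log2 fold changes of 0.16 (95% interval -0.07 to 0.39) and 0.033 (-0.21 to 0.28), and the others, Col6a3 to Col6a6, lay between -0.050 and 0.15. With the Sertoli scaling Col6a2 (-0.34), Col6a3 (-0.42) and Col6a4 (-0.37) were called lower (limma adjusted p = 0.0166, 0.0114 and 0.0466). Col9a2, the fibril-associated chain with the highest level per kb (466), had 1287, 1424 and 1258 counts in controls and 1798, 1479 and 1413 in cKO. One control value exceeded one cKO value (0.23, SE 0.108, limma adjusted p = 0.133). Col16a1 had 1616 to 2164 counts in controls and 1479 to 1530 in cKO, without overlap (-0.24, adjusted p = 0.132). The type VIII chains Col8a1 and Col8a2 had -0.27 and -0.21, and Col9a1, Col12a1, Col14a1 and Col20a1 had 0.19, 0.080, -0.048 and -0.24, none of them called.

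Genes that make, export, bind and cut collagen were read from 8 lists. Of 119 tested members, 27 (22.7%) were higher and 3 lower, beside 9.63% higher and 10.4% lower among all genes tested, and the median was 0.18. The lists were chosen with earlier results of these data known, so these counts are a description. The number higher was 15 without control replicate 1, 10 without cKO replicate 1 and 14 without cKO replicate 3. Of all genes 7.79%, 5.07% and 5.14% were higher in those fits. The number lower was 5, 6 and 1 without control replicate 1, cKO replicate 1 and cKO replicate 2. Of all genes 7.90%, 7.42% and 7.59% were lower there. Scaling to library totals gave 12 higher and 8 lower, where 4.59% and 14.2% of all genes were called. The stromal scaling gave 10 and 4, beside 3.78% and 8.83% of all genes. The Sertoli scaling gave 1 higher and 33 (27.7%) lower, beside 0.45% and 42.1% of all genes.

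For hydroxylation, glycosylation and folding, 6 of 19 genes were higher and none lower (median 0.26). P3h4, a partner of the lysyl hydroxylation machinery, had 4311, 5818 and 6594 normalised counts in controls and 9364, 8328 and 8439 in cKO. The groups were well apart (log2 fold change 0.66, SE 0.120, limma adjusted p = 0.000643), and it was the single pathway gene called higher with the Sertoli scaling (0.29, adjusted p = 0.0484). P3h4 is also known by its synaptonemal complex protein name, Sc65. Crtap, the helper of prolyl 3-hydroxylase, rose as well (0.43, limma adjusted p = 0.00717; 0.056 with the Sertoli scaling). The collagen chaperone Serpinh1 had 17647, 24910 and 24256 counts in controls and 30070, 25378 and 29179 in cKO. All cKO values were above the controls, at the edge of the test (0.35, adjusted p = 0.0553). P4hb, the shared subunit of prolyl 4-hydroxylase (-0.0425), and the lysyl hydroxylase gene Plod1 (-0.15) were not called.

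Of 15 export and propeptide genes 2 were higher and 0 lower (median 0.043), among them the propeptide cleavage enhancer Pcolce (0.43, limma adjusted p = 0.0217; 0.085 with control replicate 1 left out and 0.100 with cKO replicate 1 left out). None of 7 cross-linking enzymes was called, and lysyl oxidase, Lox, had 2500 to 2652 counts in controls and 2536 to 2748 in cKO. Of 10 receptor genes 2 were higher and 0 lower. Itga11, the integrin chain that binds fibrillar collagen, had 659, 835 and 902 counts in controls and 1076, 1100 and 1076 in cKO (0.45, SE 0.119, limma adjusted p = 0.0107), without overlap. The receptor kinase Ddr1 had 0.42 (adjusted p = 0.0192; 0.0938 with cKO replicate 1 left out and 0.0631 with cKO replicate 3 left out). Of 11 proteases and inhibitors 3 were higher and 0 lower, with Mmp14, a membrane-bound collagenase, at 0.38 (adjusted p = 0.0139, or 0.0955 without cKO replicate 1). With the Sertoli scaling Itga11, Ddr1, Mmp14 and Pcolce were at 0.079, 0.041, 0.010 and 0.054 and were not called.

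Other basement membrane proteins were split, 6 higher and 2 lower of 21 (median 0.24). The split turned with the scaling, to 2 higher and 4 lower with library totals, 1 and 2 with the stromal scaling, and 0 and 5 with the Sertoli scaling (median -0.13). Of all genes 14.2%, 8.83% and 42.1% were lower with these scalings, in the same order. Smoc2, a calcium-binding matrix protein, had 7880, 9745 and 9471 counts in controls and 11790, 12153 and 12131 in cKO (0.42, SE 0.0994, limma adjusted p = 0.00554; 0.045 with the Sertoli scaling). The laminin chain gene Lama5 had 2681, 3425 and 3170 in controls and 2429, 2283 and 2200 in cKO (-0.42, SE 0.101, adjusted p = 0.00620). Smoc2 was above and Lama5 below the control range in all 3 cKO libraries. Nid1, which links laminin to type IV collagen, was higher (0.37, limma adjusted p = 0.00975; 0.0923 with cKO replicate 1 left out, 0.0539 with the stromal scaling and 0.996 with the Sertoli scaling, where its value was -0.0010), and Agrn was lower (-0.34, adjusted p = 0.0240). The call of Agrn ended when control replicate 2 (adjusted p = 0.122), cKO replicate 2 (0.0947) or cKO replicate 3 (0.0749) was left out. Perlecan, Hspg2, had -0.27 (adjusted p = 0.0610).

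Among 17 proteins of the fibril surface 3 were higher and 1 lower. The one that fell was fibronectin, Fn1, on which collagen fibrils are assembled, with 3411, 3387 and 3552 counts in controls and 3052, 2250 and 2509 in cKO (-0.42, SE 0.104, limma adjusted p = 0.00778; 0.0754 without cKO replicate 2). Lama5, Agrn and Fn1 were also called lower with the Sertoli scaling. Of 19 genes of TGF-beta, the growth factor known to drive collagen transcription, 5 were higher and 0 lower. Smad7, its feedback inhibitor, had 2057, 2222 and 2086 counts in controls and 3165, 3098 and 2754 in cKO (0.50, SE 0.0936, adjusted p = 0.000843), and Ltbp3, which holds the latent ligand, had 0.48 (adjusted p = 0.00824). With the Sertoli scaling these were 0.13 and 0.10 and not called. Then 7 of the 19 genes were lower, where 42.1% of all genes tested were lower, so that count is not particular to this list.

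**Figure D5:**
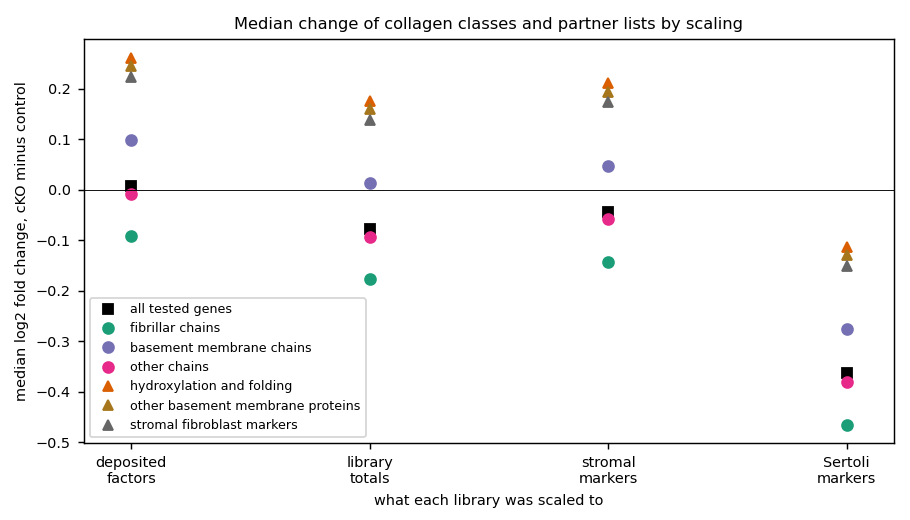
Median log2 fold change, cKO minus control, of the collagen classes (circles), 3 gene lists (triangles) and all tested genes (squares) when libraries are scaled to the deposited factors, library totals, stromal markers or Sertoli markers. A scaling shifts all genes by nearly the same amount, so the medians drop together and keep their order by construction. The fibrillar chains are lowest in each column, and with the Sertoli scaling all 7 medians are below 0.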

How the data were processed

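Total RNA of whole mouse testes on day 10 was sequenced from mRNA libraries, 3 control and 3 cKO, grouped by sample title. The submitters' processing notes list StringTie 1.3.1 and RSEM. Not given in the sources used here: aligner, build, annotation, strand setting. What the authors deposited, under a name for raw counts, is a normalised signal: 100% of each column's values were whole multiples of 1 step (tolerance 1e-06), whose inverse matched a median-of-ratios factor (0.825 to 1.35). Each value is thus a read count divided by that factor. Of recovered counts of 1 to 20, 75.1% to 80.9% per library were even. Recovered reads may therefore not be independent of each other, which was not tested and which the filter and the count tests do not allow for. All 6 columns were used.

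Genes were filtered with filterByExpr on recovered reads (minimum count 10), which left 17570. The test was limma 3.58.1 (eBayes, trend) applied to log2(value + 2), 2-sided, no covariate, in R 4.3.3, with Benjamini-Hochberg adjustment over all genes. The design named this test for scaled values. On the recovered reads edgeR 4.0.16 (quasi-likelihood) called 1575 genes higher and 1857 lower, and DESeq2 1.42.0 was also run. The scripts were tested on simulated data. Ratios of chains were tested by exact permutation. The labels do not say that replicate numbers pair the libraries, and the main test used no pairing. Exon lengths, the union of all annotated exons of a gene, came from GENCODE M21, which held all 43 chains. The alternatives were other pseudocounts, no filter, 3 other scalings, edgeR, DESeq2, a replicate block and each library left out.

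The members and lists were chosen with earlier results of these data known. Values in every library are given for each called chain and for the 3 chains of each class with the highest level per kb, and at most 4 called genes are named per pathway list. Serpinh1, P4hb, Plod1, Lox and Hspg2 were named after their values were seen, and Hapln1 was left out of the second cartilage sum after its value was seen.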

Additional observations from a re-analysis of the deposited data

How the results depend on the processing

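Scaling moved the results most. The number of chains called higher was 1 with library totals, stromal marker scaling, edgeR, a pseudocount of 0.5 or the replicate block, and 0 with the Sertoli scaling, where 24 were lower. Pathway genes called higher numbered 12 with library totals, 10 with stromal scaling and 1 with Sertoli scaling. Those called lower numbered 8 with library totals, 33 with Sertoli scaling and 7 with DESeq2, which called 13.0% of all genes lower. The basement membrane median was 0.013 with library totals. The Sertoli scaling shifts all genes by nearly the same amount, and their median was -0.36. With this scaling the fibrillar, basement membrane and other medians were -0.47, -0.28 and -0.38, and 15 of the 18 chains above 0 were then below it. Among these were Col26a1 (-0.025), which lost its call, and Col4a1 (-0.30) and Col6a2 (-0.34), which were called lower. Of all calls 51.9% were lower with the deposited factors, 75.6% with library totals, 70.0% with stromal and 98.9% with Sertoli scaling. Over the 6 fits that each left out 1 library, chains called higher ran from 1 to 3 and lower from 2 to 3. Pathway genes higher ran from 10 to 34 and lower from 1 to 6. Of all genes 5.07% to 9.70% were higher and 7.06% to 9.86% lower in these fits. The medians ran from -0.18 to -0.05 (fibrillar), 0.05 to 0.15 (basement membrane) and -0.07 to 0.03 (other).

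With the replicate number as a block, 1 chain was higher (Col23a1) and 3 lower, and 22 pathway genes were higher. Of all genes 8.74% were then higher and 10.1% lower. Deviations of libraries with the same number correlated at -0.038, -0.0023 and 0.055, and those with different numbers at -0.074 to 0.074. With so few libraries this cannot exclude that libraries of 1 number share more than the number, and the labels do not say. Chains with few reads, such as Col28a1 and Col19a1, are limited by depth: a change in Col19a1 was not detectable here.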

Other observations

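The chains of type IX collagen, which together form 1 fibril-associated molecule in cartilage, were present at unequal levels. Col9a1 stood at 0.0194 ± 0.00232 times Col9a2 per kb in controls and 0.0207 ± 0.00929 times in cKO (SD, n = 3 per group). Col9a2 was 6.39 times Col9a3 in control replicate 1 and 2.94 to 4.10 times in the other 5 libraries.

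Control replicate 1 was the lowest of the 3 controls for 20 of the 42 tested chains, against 10 for control replicate 2 and 12 for control replicate 3. It was the lowest of all 6 libraries for 11 chains, and control replicate 2 was the highest of all 6 for 13. The same counts were not taken over all genes tested, so they may not be particular to collagen chains.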
